A study of Saccharomyces cerevisiae with 104 samples.

Results

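RNA polymerase I (Pol I) is the nuclear enzyme that makes the large ribosomal RNA precursor, and the genes for its subunits in the budding yeast Saccharomyces cerevisiae are described here. The set was chosen by name as RPA190, RPA135, RPA49, RPA43, RPA34, RPA14, RPA12, RPC40 and RPC19. All 9 names were found, once each, among the 7108 genes listed in every RNA-seq table, and all 9 carried the same symbol and start position in the RefSeq gene table. They are 9 of the 5989 nuclear protein-coding genes. The enzyme has 14 subunits, and the other 5 are shared by Pol I, Pol II and Pol III and were used as a separate list.

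The study concerned stalling of RNA polymerase II after acute hydrogen peroxide, by its title and design text, and comprised 104 samples. Of these, 100 were ChIP-exo samples, which are not analysed here, and 4 were RNA-seq libraries of total RNA. One protocol text accompanies every sample. It gives growth at 25 °C to an optical density of 0.8 to 1.0, exposure to 0.3 mM H2O2 lasting 6 min and crosslinking with 1.0% formaldehyde. The labels of the RNA-seq libraries name no strain, genotype, untreated control or replicate, so the libraries were assigned to no condition. They are called library 1 to library 4, numbers that serve as names, and values in series follow that order. Each value comes from 1 library and has no replicate error, no groups were compared and no test was made between libraries.

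Pol I works on the ribosomal DNA repeats inside the nucleolus, and its output sets the pace of ribosome production in growing yeast. Its core resembles that of Pol II and Pol III, with which it shares ancestry. RPA190 and RPA135 form the active centre, and RPC40 with RPC19 make the assembly heterodimer that is also part of Pol III. RPA12 provides RNA cleavage at the active site, RPA49 and RPA34 make a heterodimer bound to the core, and RPA43 with RPA14 form the stalk. The genes themselves are transcribed by Pol II. Each complete enzyme contains 1 copy of each of these 9 proteins.

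The values are TPM, a length-normalised share of all RNA in the table with ribosomal RNA included, so a library richer in ribosomal RNA has lower TPM for every messenger. The share of TPM in nuclear protein-coding genes was 46.9, 12.2, 21.2 and 5.77% in libraries 1 to 4. Their median gene stood at 40.2, 7.50, 17.6 and 3.59 TPM, with a coverage (mean read depth) of 12.8, 3.70, 8.17 and 2.26. Coverage times gene length summed to between 189.6 and 302.3 megabases of aligned sequence over all genes. The level of a subunit gene is therefore given below both as TPM and as its ratio to the median nuclear protein-coding gene of the same library, on the log2 scale and with no pseudocount, called its relative level. In such bulk RNA a lower share of a messenger and fewer cells containing it cannot be told apart. Of markers of the MATa mating type, 5 of 5 (STE2, MFA1, MFA2, BAR1 and STE6) were above the median gene in every library. Of the MATalpha genes, MF(ALPHA)1 was listed at 0 throughout, STE3 was listed at 0 in libraries 2 and 3 and at 0.169 and 0.0451 TPM in libraries 1 and 4, and MF(ALPHA)2 had 31.3, 1.81, 15.2 and 0.693 TPM.

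Pol I subunit messengers were moderately abundant in all 4 libraries. The median subunit gene stood at 2.21, 2.53, 1.99 and 2.48 times the median nuclear protein-coding gene, or 1.14, 1.34, 0.99 and 1.31 on the log2 scale. Above the median gene lay 8, 9, 9 and 9 of the 9 members, against 50% of all nuclear protein-coding genes by construction, and RPC19 in library 1 was the exception. At least 2-fold above it lay 6, 6, 4 and 6 members, against 23.5, 24.6, 23.3 and 24.6% of the 5989 nuclear protein-coding genes. Among genes ranked by TPM, the median member stood at the 79.7, 81.2, 76.5 and 80.5 percentile. The 4 list medians spanned 0.35 log2 units, or 1.27-fold. They spanned 0.49 log2 units when each member was read against genes within 1.5 times its own length. Relative to the median gene, a different member was the median in each library: RPA34, RPA49, RPA43 and RPA190.

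**Figure D1:**
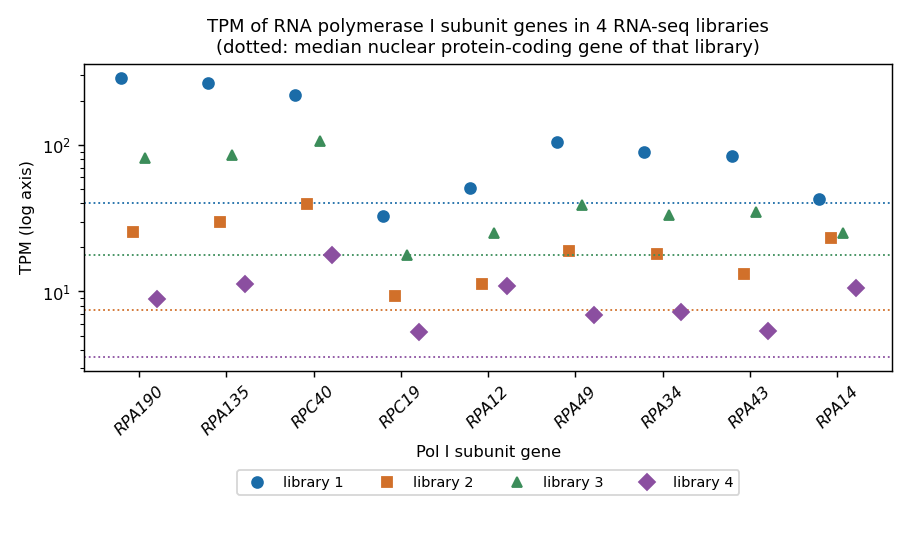
TPM (log axis) of the 9 Pol I subunit genes in each of the 4 RNA-seq libraries, 1 marker shape and colour per library, with a dotted line at the median nuclear protein-coding gene of that library (40.2, 7.50, 17.6 and 3.59 TPM). Every marker lies above the line of its own colour except RPC19 in library 1, and RPC19 in library 3 lies on its line.

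The genes of the active centre were among the most abundant of the set. RPA190 encodes the largest subunit (YOR341W, chromosome 15, 960987 to 965981, plus strand, sacCer3) and had 288, 25.3, 82 and 8.92 TPM. Its relative level was 2.84, 1.76, 2.22 and 1.31, so it was the highest member in library 1, the third highest in library 2 and the fifth highest in library 4. RPA135 encodes the second largest subunit (YPR010C, chromosome 16, 577585 to 581196, minus strand) and had 266, 29.96, 85.5 and 11.3 TPM. At 2.72, 2.0, 2.28 and 1.65 its relative level ordered the libraries in the same way as that of RPA190. The messengers of RPA135 and RPA190 stood close to each other in each library, with RPA135 at 0.923, 1.18, 1.04 and 1.27 times RPA190 on the TPM scale. Relative to the median gene, RPA190 covered a 2.88-fold range over the libraries and RPA135 a 2.10-fold range.

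RPC40 and RPC19, which join early in assembly and serve Pol III as well, stood at opposite ends of the set. RPC40 (YPR110C, chromosome 16, 745828 to 746835, minus strand) had 219, 39.4, 106 and 17.6 TPM. Its relative level of 2.44, 2.39, 2.59 and 2.29 was the highest of the set in libraries 2, 3 and 4 and moved the least of all 9 members, 1.23-fold. RPC19 (YNL113W, chromosome 14, 412771 to 413199, plus strand) had 32.5, 9.26, 17.7 and 5.25 TPM and a relative level of -0.31, 0.30, 0.01 and 0.55, the lowest member in each library. RPC40 exceeded its partner 6.73, 4.25, 5.99 and 3.36 times on the TPM scale, and 4.002, 3.92, 4.41 and 3.41 times when each was read against genes of like length. The value of RPC19 is uncertain, because 285 of its bases, 66.4% of the gene, overlap the annotated frame YNL114C on the opposite strand and the strandedness of the libraries is not given in the sources used here. YNL114C was listed at 39.01, 12.6, 28.9 and 4.29 TPM, above RPC19 in libraries 1, 2 and 3 and below it in library 4.

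RPA12, the subunit needed for RNA cleavage (YJR063W, chromosome 10, 555195 to 555572, plus strand), is the shortest gene of the set at 378 bases. It had 50.6, 11.2, 25.1 and 10.9 TPM, so its TPM in library 4 was close to that in library 2 although the median gene stood lower in library 4. Its relative level was 0.33, 0.58, 0.51 and 1.60. Library 4 was thus the highest for this gene, and the other 3 libraries lay between 0.33 and 0.58. Its coverage in library 4 was 6.83, equal to 2.58 kilobases of aligned sequence, and no read counts were used.

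The genes of the lobe heterodimer were similar in level and, relative to the median gene, steady across the libraries. RPA49 (YNL248C, chromosome 14, 181361 to 182608, minus strand) had 104, 18.98, 38.8 and 6.90 TPM, with a relative level of 1.38, 1.34, 1.14 and 0.94. Its partner RPA34 (YJL148W, chromosome 10, 140437 to 141138, plus strand) had 88.9, 17.98, 33.3 and 7.25 TPM, with a relative level of 1.14, 1.26, 0.92 and 1.01. RPA49 was 1.17, 1.06, 1.17 and 0.953 times RPA34. Relative to the median gene the range over the libraries was 1.35-fold for RPA49 and 1.27-fold for RPA34. Against genes of like length RPA34 stood at 1.28, 1.04, 0.85 and 0.75. On that scale RPA34 spanned 0.53 log2 units and RPA49 0.40, where the members' median span was 0.54.

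The stalk genes differed from each other in direction between libraries. RPA43, whose protein contacts the initiation factor Rrn3 (YOR340C, chromosome 15, 959202 to 960182, minus strand), had 84.3, 13.1, 35.02 and 5.39 TPM and a relative level of 1.07, 0.80, 0.99 and 0.58. RPA14 (YDR156W, chromosome 4, 769525 to 769938, plus strand) had 43.1, 23.3, 25.1 and 10.5 TPM and a relative level of 0.10, 1.63, 0.51 and 1.55. RPA43 was therefore 1.96 and 1.40 times RPA14 in libraries 1 and 3 and 0.562 and 0.511 times in libraries 2 and 4. With each read against genes of like length, RPA43 was 1.16, 0.525, 1.03 and 0.524 times RPA14. RPA14 covered a 2.90-fold range relative to the median gene, the widest of the set, and RPA43 a 1.40-fold range. An 8-base stretch of RPA14 overlaps the next frame, YDR157W, on the same strand.

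RPA43 and RPA190 are neighbours that point away from each other, with 804 bases between their starts, so a single stretch of DNA lies upstream of both. Their levels were not equal. RPA43 stood at 0.293, 0.516, 0.427 and 0.604 times RPA190 on the TPM scale, and relative to the median gene RPA190 ranged more widely than RPA43, as given above. None of the other 7 members has another member as its neighbour in the tables.

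Ordered by the median relative level of the 4 libraries, the members ran RPC40, RPA135, RPA190, RPA49, RPA34, RPA14, RPA43, RPA12 and RPC19. These medians went from 2.42 for RPC40 to 0.16 for RPC19. No neighbours in this order differed beyond their spread, since the range over libraries of each member overlapped that of the next. RPA190 was nevertheless above RPA49, and RPA12 above RPC19, in 4 of 4 libraries. The distance between the highest and the lowest member was 3.14, 2.09, 2.58 and 1.75 log2 units, from 8.84-fold in library 1 to 3.36-fold in library 4. Together the 9 genes held 0.251, 0.154, 0.211 and 0.146% of the TPM of nuclear protein-coding genes.

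**Figure D2:**
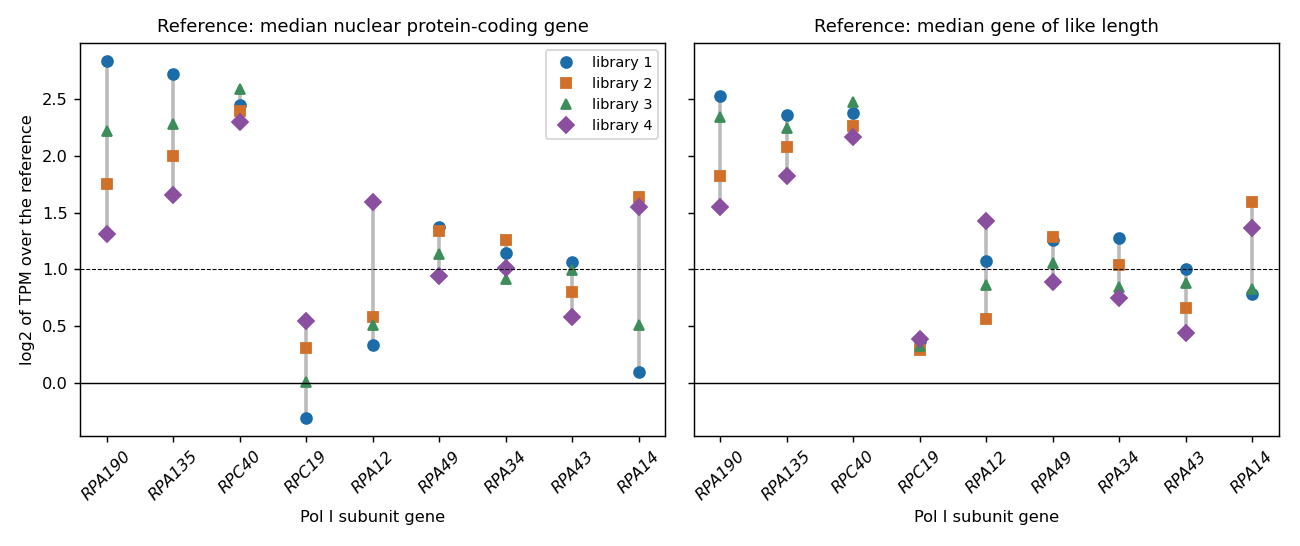
log2 of TPM over the median nuclear protein-coding gene (left) and over the median nuclear protein-coding gene of like length (right) for the 9 subunit genes, grouped by role. Markers are the 4 libraries, grey lines join the lowest and the highest library, the solid line is the reference and the dashed line is 2-fold above it. On the left RPA190, RPA135, RPA12 and RPA14 span more than 1 log2 unit, and on the right no member does.

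Relative to the median gene, 4 of the 9 members, RPA190, RPA135, RPA14 and RPA12, spanned at least 2-fold over the 4 libraries, against 44.3% of the 5757 nuclear protein-coding genes above 0 in each library. The members' median span was 0.85 log2 units and that of all these genes 0.90. The members' count is thus near the background. With library 1 or library 4 left out, 2 members spanned 2-fold, and with library 2 or library 3 left out, 4 did.

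These 4 were the 2 longest and the 2 shortest genes of the set, and gene length moved with the relative level over all nuclear protein-coding genes. RPA190 and RPA135, of 4995 and 3612 bases, had their highest relative level in library 1 and their lowest in library 4. RPA14 and RPA12, of 414 and 378 bases, had their lowest in library 1. Among the 1203 nuclear protein-coding genes of at most 621 bases, the median relative level was -0.73, 0.11, -0.31 and 0.28. Among the 1197 genes of at least 2100 bases it was 0.37, -0.11, 0.07 and -0.17, the reverse order of libraries.

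Read against genes of like length, within 1.5 times the member's own, no member spanned 2-fold, where 36.6% of the 5757 nuclear protein-coding genes did. On that scale the members' median span was 0.54 log2 units and that of all genes 0.79. These genes were not matched to the members for abundance, and the median member stood between the 76.5 and 81.2 percentile of TPM. Whether the members were steadier than genes of like abundance was not tested. The widest was RPA190, whose level over genes of like length was 2.53, 1.82, 2.35 and 1.55 and which spanned 0.97 log2 units. RPC19 spanned the least, 0.10 log2 units, at 0.37, 0.29, 0.33 and 0.39, and so lay above genes of like length in each library. Its span and its place above the reference are uncertain, given the overlap with YNL114C described above. RPA14 stood at 0.79, 1.59, 0.83 and 1.37, and RPA12 at 1.08, 0.57, 0.86 and 1.42. All 9 members were above genes of like length in all 4 libraries, and the matching share of all nuclear protein-coding genes was not counted. At least 2-fold above genes of like length lay 7, 6, 4 and 5 members, against 23, 24.3, 23.2 and 24.1% of nuclear protein-coding genes. What made long and short genes differ between the libraries was not tested.

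**Figure D3:**
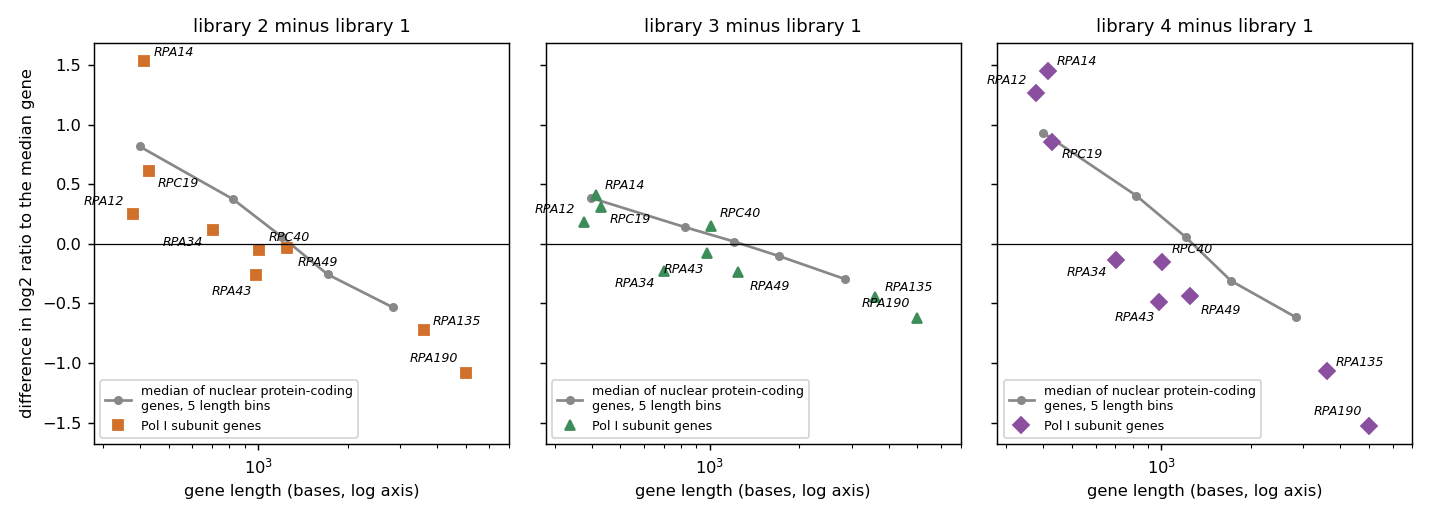
Difference in log2 ratio to the median gene between library 2, 3 or 4 and library 1 (vertical axis) against gene length in bases (log axis). Coloured markers are the 9 Pol I subunit genes and the grey line joins the medians of all nuclear protein-coding genes in 5 bins of length. RPA190 and RPA135 lie lowest and RPA14 highest in each panel, and the grey line falls from short to long genes in each panel.

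By library pair, the relative level of RPA190 differed by -1.08 log2 units in library 2 less library 1 and by -1.53 in library 4 less library 1. RPA14 differed by 1.53 and 1.45 in the same comparisons, in the opposite direction. Between libraries 1 and 3 no member differed by 2-fold, where 3.59% of nuclear protein-coding genes were at least 2-fold higher and 1.13% at least 2-fold lower in library 3. Between libraries 2 and 4 RPA12 alone did, at 1.02 log2 units higher in library 4, where 3.58% of genes were at least 2-fold higher and 5.47% at least 2-fold lower. In library 4 against library 1, 2 members were at least 2-fold higher (RPA14 and RPA12) and 2 at least 2-fold lower (RPA190 and RPA135), against 19.7 and 10.9% of genes. In library 2 against library 1 there was 1 in each direction (RPA14 and RPA190), against 20.5 and 9.20%. Between libraries 2 and 3 the member that differed was RPA14, at -1.12 log2 units in library 3 less library 2, where 7.62% of genes were at least 2-fold higher and 17.7% at least 2-fold lower. RPA14 and RPA12 were at least 2-fold higher in library 4 than in library 3, as were 16% of genes, and 7.77% were at least 2-fold lower.

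As a list, Pol I subunit genes stood above those of Pol III in each library and had no constant order with those of Pol II. The list median of the 7 Pol II-specific subunit genes was 1.56, 1.23, 1.60 and 1.36, above the Pol I median in libraries 1, 3 and 4 and below it in library 2. In library 4 the lists differed by -0.04 (Pol I less Pol II), and by 0.24 in the opposite direction when read against genes of like length. The 10 Pol III-specific subunit genes had list medians of 0.18, 0.12, 0.37 and -0.08, below Pol I in each library. Of these 10, the number above the median gene was 7, 5, 7 and 5. The 5 subunits shared by all 3 enzymes had medians of 0.83, 1.80, 1.21 and 2.28, with 4, 5, 5 and 5 above the median gene. Their highest member by its mean was RPO26, at 1.32, 1.80, 2.19 and 2.44, and their lowest was RPC10, at -0.09, 0.86, 0.92 and 1.63. They are short genes, with a median length of 441 bases, and their medians ordered the libraries as those of short genes did. Against genes of like length their medians were 1.55, 1.58, 1.85 and 2.09.

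**Figure D4:**
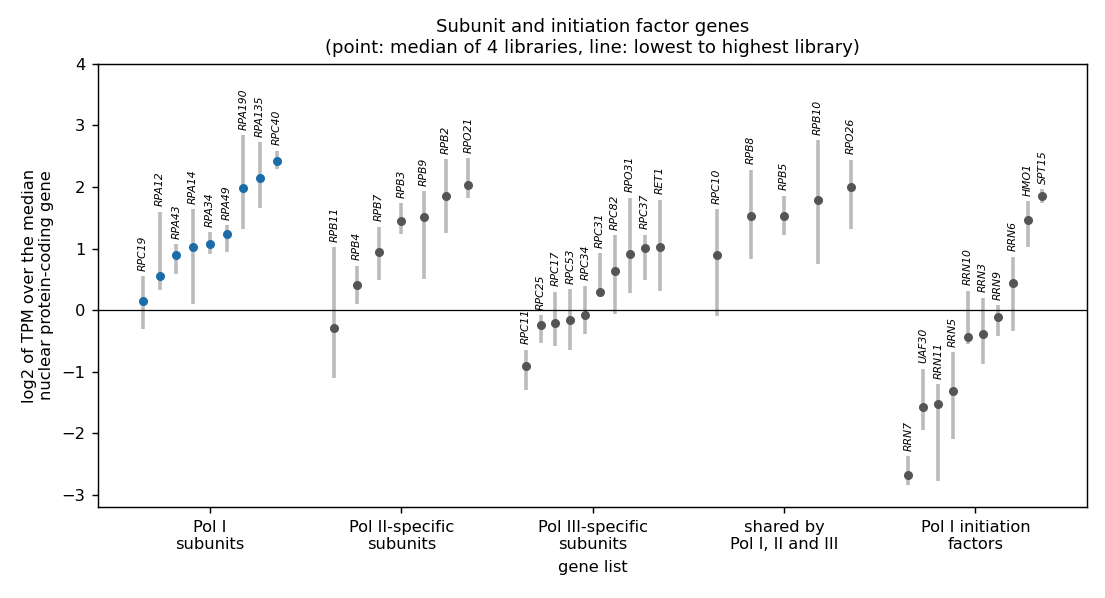
log2 of TPM over the median nuclear protein-coding gene for Pol I subunits (blue) and for Pol II-specific, Pol III-specific and shared subunits and Pol I initiation factors (grey). Points are the median of 4 libraries and lines run from the lowest to the highest library. Points run from 0.16 to 2.42 for Pol I, from -0.91 to 1.02 for Pol III-specific subunits and from -2.68 to 1.85 for the initiation factors.

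Role by role, RPA190, RPA135, RPA12, RPA43 and RPA14 could each be paired with 1 Pol III-specific subunit, and each of these 5 stood above its counterpart in 4 of 4 libraries, also when both were read against genes of like length. RPA190 exceeded RPO31, the largest Pol III subunit gene, by 1.01, 1.33, 0.83 and 1.03 log2 units. RPA135 exceeded its counterpart RET1 by 0.93, 1.40, 0.83 and 1.35. These are long genes in both enzymes. RPA12 exceeded RPC11 by 0.97, 1.88, 1.37 and 2.55, the stalk gene RPA43 exceeded RPC25 by 1.43, 0.94, 1.07 and 1.11, and RPA14 exceeded RPC17 by 0.48, 1.33, 0.55 and 2.14. The lobe heterodimer of RPA49 and RPA34 also has a counterpart in Pol III, made of RPC37 and RPC53, and was not matched gene by gene. There the order was not constant. RPC53 stood at 0.15, -0.48, 0.34 and -0.64, below both RPA49 and RPA34 in each library. RPC37 stood at 0.49, 1.07, 0.96 and 1.22, below both in libraries 1 and 2, above RPA34 in library 3 and above both in library 4.

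Against Pol II the role pairs were mixed, with the Pol I member higher in 19 of 28 pair-by-library values and in all 4 libraries for 2 of 7 roles. RPA135 exceeded RPB2 by 0.28, 0.75, 0.07 and 0.14, and RPC40 exceeded RPB3, its counterpart in the assembly heterodimer, by 0.71, 1.16, 0.99 and 1.01. RPA190 differed from RPO21, the largest Pol II subunit gene, by 0.37, -0.29, 0.19 and -0.51. RPA12 differed from RPB9 by -1.23, 0.07, -1.41 and 0.12, RPC19 from RPB11 by 0.80, -0.72, 0.89 and 0.23, RPA43 from RPB7 by 0.57, -0.49, 0.40 and -0.77, and RPA14 from RPB4 by -0.44, 1.54, -0.21 and 1.26. The sign of these 5 differences therefore depended on the library. Read against genes of like length, RPA14 less RPB4 was positive in each library, at 0.09, 1.75, 0.17 and 1.37, and the other 4 kept their signs.

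The listed factors that work with Pol I at the ribosomal DNA were mostly less abundant than the enzyme's own subunits. The 10 initiation factor genes had list medians of -0.22, -0.60, -0.18 and -0.68, with 5, 3, 5 and 3 of them above the median gene. Highest was SPT15, the TATA-binding protein that all 3 polymerases use, at 1.96, 1.74, 1.90 and 1.80. HMO1, also on the list, stood at 1.02, 1.67, 1.24 and 1.77, above the Pol I list median in libraries 2, 3 and 4. Lowest was RRN7, a core factor subunit, at -2.52, -2.84, -2.37 and -2.84. RRN3, which binds Pol I through RPA43 to make it ready for initiation, stood at 0.20, -0.87, 0.03 and -0.81, below RPA43 in each library.

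Regulators that act on promoters of ribosome production genes, directly or through other factors, lay near the median gene as a list. The protein kinase SCH9 is among them. The 8 genes had list medians of -0.41, 0.22, -0.29 and -0.03, with 3, 4, 3 and 4 above the median gene. RAP1, an activator of ribosomal protein genes, was highest by its mean, at 0.89, 0.67, 0.66 and 0.10. TOD6, a repressor that binds the PAC element found upstream of many Pol I and Pol III subunit genes, was lowest by its mean, at -1.25, -1.24, -1.72 and -2.09. IFH1, a coactivator of ribosomal protein genes, had nearly the same mean and the widest span of the list, at -4.64, -0.06, 0.38 and -1.96, and was named after its values were seen. Its coverage was 0.511, 3.55, 10.6 and 0.578, against 12.8, 3.70, 8.17 and 2.26 for the median nuclear protein-coding gene. What made IFH1 low in libraries 1 and 4 was not tested.

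The RNAs that Pol I makes were listed as mature products. RDN58, the gene of the small RNA of the large subunit, was listed far above the others, at 40.6, 69.7, 68.3 and 75.8% of TPM over its 2 annotated copies. RDN25, the gene of the main large-subunit ribosomal RNA, held 3.15, 3.38, 1.92 and 1.77%, and RDN18, of the small subunit, held 1.5, 2.15, 1.12 and 1.40%. RDN37, the annotated precursor that spans them, was listed at 0 in each library. Whether ribosomal RNA was removed before sequencing, and how reads were assigned among these overlapping entries, is not given in the sources used here. These shares are therefore not a measure of Pol I output, and the 0 of RDN37 was not read as absence of the precursor.

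The 8 genes whose relative levels followed the list medians most closely, after each was centred on its own mean over the 4 libraries, were KRS1, SUP45, RPF1, JIP4, VPS72, PEX10, EMC2 and ULP1. They were ranked among 3231 nuclear protein-coding genes with a coverage of at least 2 in each library. Their root mean square difference from the list medians lay between 0.02 and 0.04 log2 units, against a median of 0.35 for all ranked genes. The closest was KRS1, the cytosolic lysyl-tRNA synthetase, at 3.31, 3.56, 3.17 and 3.5. Next came SUP45, a translation release factor, at 2.32, 2.5, 2.19 and 2.46. With 4 libraries and list medians that differ by 0.35, this is a likeness of nearly level patterns.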

How the data were processed

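RNA-seq of total RNA was deposited for 4 libraries as tables of gene abundances. Coverage, a signal, was deposited by the authors as mean read depth per gene, and FPKM and TPM were deposited beside it, per the file headers. FPKM and TPM were constant multiples of coverage within a table, so relative levels were equal in all 3 units. TPM summed to 1000000 per library. BWA, SAMtools and Picard, with the build sacCer3, are named per the submitters' processing notes, with no split between assays. The RNA-seq aligner, abundance estimator and strandedness are not given in the sources used here.

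Relative level was log2 of TPM over the median of 5989 nuclear protein-coding genes, a class taken from RefSeq (R64 assembly, 6011 identifiers matched, 5997 with equal starts). Depth in reads was unknown, so no sampling intervals were made. No replicates or conditions exist in the labels, so no test was made, and a level or span was counted past 2-fold. The calculation was tested on simulated data. Genes were named by rule: all members, the highest and lowest of each other list, the 8 most alike and overlapping neighbours. Others were named for their role. Members, lists and role pairs were chosen with earlier results of these data known. Promoter motifs were not examined, since no sequence was used here. Alternatives were pseudocounts of 0.1 and 1, reference genes limited to a 4-library median of 1 or 10 TPM or more, FPKM, coverage, genes of like length, all genes, reading frames by name, median-ratio scaling and each library left out. Python 3.11.15, numpy 2.4.6, pandas 2.3.3 and matplotlib 3.10.9 were used.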

Additional observations from a re-analysis of the deposited data

How the results depend on the processing

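No paired analysis was possible because the labels give no groups or replicate numbers. A value of a list or single member counts as moved when it shifted by at least its own SD over the 4 libraries. The span of the list median was judged by the SD of the list medians. A count moved when it shifted beyond 1.5 times. A member that varied widely could thus shift far without counting as moved. RPA14 in library 1 went from 0.10 to -0.63 with reference genes of 10 TPM or more. With genes of like length it went to 0.79, and neither shift counted. Of the recomputed counts, spans and medians of the Pol I list and its differences from Pol II and Pol III, 217 did not move and 13 did. Of the values of single members and medians of the other lists, 427 did not move and 77 did. FPKM and coverage each gave 22 of the 217 and 56 of the 427. Neither could move a result, since relative levels were equal in all 3 units. Differences between lists also could not move where a single reference median was replaced by another for all genes. These totals therefore overstate how far the results were put to the test. No member at least 2-fold from the reference in a library changed sign there. Limiting the reference to genes with 10 TPM or more (4-library median) gave list medians of 0.42, 0.62, 0.28 and 0.57 and left 3, 3 and 1 members 2-fold above it in libraries 1, 2 and 4. Members above it were then 6, 7, 6 and 7, with RPC19 below it in each library, RPA12 in libraries 1 to 3, RPA14 in libraries 1 and 3 and RPA43 in library 4. A pseudocount of 1 gave 1.11 in library 4, and the median over all genes gave 1.37 in library 1 and 1.18 in library 3. With genes of like length, 0 members spanned 2-fold. With 1 library left out, between 2 and 4 members spanned 2-fold. Without RPC40 and RPC19, an alternative chosen after seeing the data, no list value or count moved. That alternative could not shift the list medians, because RPC40 lay above and RPC19 below the list median in each library. RPC19 had the lowest coverage of the members in each library, down to 3.30 in library 4, so its values rest on the least depth per base.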
